A study of Mus musculus with 15 samples.

Results

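The genes described here are the skeletal myosin heavy chain isoforms, the motor proteins of the thick filament: Myh1, Myh2, Myh3, Myh4, Myh6, Myh7, Myh7b, Myh8 and Myh13. They were taken by gene symbol from the deposited tables, in which each had 1 row, so they are 9 of 56953 genes. The study sampled muscle stem cells (MuSCs) and quadriceps femoris of mice given back cells of their own, or sham-operated, and RNA was measured by bulk sequencing in 15 libraries. The MuSC libraries came from biopsies of mice 5, 6 and 11 after autologous transplantation (from an area that had received no cells) and from biopsies of mice 5, 6 and 11 before it. The muscle libraries came from 6 transplanted mice (4, 5, 6, 11, 14 and 94) and from 3 sham-operated mice (3, 12 and 192). All groups are labelled as wild-type males of strain 129, 10 weeks old, without a transgene, and libraries are named below by group and mouse number. The muscle libraries were deposited in 2 tables, one with transplanted 4, 14 and 94 and sham 3 and 192 (the 2-sham table) and one with transplanted 5, 6 and 11 and sham 12 (the 1-sham table). Values are in TPM, a unit of transcript abundance that is scaled for gene length and allows genes to be compared, or in CPM, estimated counts scaled for library size, and tests between libraries used the estimated counts.

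A muscle fibre's contraction speed is set largely by which myosin heavy chain it makes. In adult rodent limb muscle, type IIb fibres use Myh4, type IIx fibres Myh1, type IIa fibres Myh2 and slow fibres Myh7, which is also the beta heavy chain of the heart. Myh3 is the embryonic and Myh8 the perinatal chain, both of which return briefly when stem cells form new fibres. Myh6 is the alpha chain of the heart, Myh7b an ancient slow-type gene best known for the microRNA in its intron, and Myh13 the chain of extraocular muscle. MuSCs at rest lie beside the fibre, express Pax7 and make little sarcomeric myosin.

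In the annotation of the mouse genome, Myh3, Myh2, Myh1, Myh4, Myh8 and Myh13 follow one another on the plus strand of chromosome 11. Myh6 and Myh7 are neighbours on the minus strand of chromosome 14, and Myh7b lies on the plus strand of chromosome 2. The promoters of the adult fast genes and of Myh8 are shown because they share runs of letters, and that of Myh3 because it leads in MuSCs and lies in the same cluster. Each sequence runs from 250 bases before the annotated start to 50 bases from it on, 5′ to 3′, from RefSeq on GRCm38.p6. Capitals mark runs of 9 or more bases found on the same strand in at least 3 of the 4 promoters of Myh2, Myh1, Myh4 and Myh8.
Myh2 promoter, chr11:67170777-67171076, plus strand: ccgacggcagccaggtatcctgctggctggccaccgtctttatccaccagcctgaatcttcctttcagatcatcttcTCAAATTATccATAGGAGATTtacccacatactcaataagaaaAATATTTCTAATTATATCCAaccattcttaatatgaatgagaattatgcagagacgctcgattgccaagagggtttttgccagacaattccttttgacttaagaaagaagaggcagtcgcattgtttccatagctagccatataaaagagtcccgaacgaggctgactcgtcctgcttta
Myh1 promoter, chr11:67199852-67200151, plus strand: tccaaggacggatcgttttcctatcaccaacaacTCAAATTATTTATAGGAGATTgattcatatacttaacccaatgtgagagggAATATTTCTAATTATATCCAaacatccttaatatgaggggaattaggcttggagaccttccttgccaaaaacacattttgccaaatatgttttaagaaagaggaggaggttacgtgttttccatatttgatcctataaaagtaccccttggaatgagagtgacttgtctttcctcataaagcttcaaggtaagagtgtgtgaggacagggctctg
Myh4 promoter, chr11:67237562-67237861, plus strand: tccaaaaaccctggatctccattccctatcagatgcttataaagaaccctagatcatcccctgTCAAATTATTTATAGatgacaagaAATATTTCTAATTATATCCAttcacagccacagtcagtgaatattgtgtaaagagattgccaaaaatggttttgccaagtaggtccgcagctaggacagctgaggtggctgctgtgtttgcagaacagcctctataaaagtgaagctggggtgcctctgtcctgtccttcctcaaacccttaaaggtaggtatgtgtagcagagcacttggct
Myh8 promoter, chr11:67276874-67277173, plus strand: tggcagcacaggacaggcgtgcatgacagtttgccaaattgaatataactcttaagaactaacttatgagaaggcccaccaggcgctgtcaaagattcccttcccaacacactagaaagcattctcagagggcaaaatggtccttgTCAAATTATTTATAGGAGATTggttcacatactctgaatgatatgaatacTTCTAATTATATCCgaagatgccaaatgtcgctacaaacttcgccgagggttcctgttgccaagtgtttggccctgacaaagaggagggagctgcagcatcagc
Myh3 promoter, chr11:67078050-67078349, plus strand: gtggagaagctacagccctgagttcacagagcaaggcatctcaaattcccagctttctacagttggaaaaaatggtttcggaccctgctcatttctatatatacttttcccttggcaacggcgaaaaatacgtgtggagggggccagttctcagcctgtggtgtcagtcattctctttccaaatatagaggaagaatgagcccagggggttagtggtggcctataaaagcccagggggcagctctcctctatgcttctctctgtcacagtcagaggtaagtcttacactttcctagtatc

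Myh2, Myh1 and Myh4 shared the 20 bases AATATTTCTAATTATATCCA, which began 130 bases before the start in Myh2, 165 in Myh1 and 163 in Myh4. The inner 14 bases, TTCTAATTATATCC, also stood in Myh8, from 54 bases before its start. Searched on both strands, these 14 bases were in 4 of 32851 mouse promoters of this length (0.0122%), which were those 4. A second run, TCAAATTATTTATAGGAGATT, was whole in Myh1 and Myh8, cut to its first 15 bases in Myh4 and broken by 2 other letters in Myh2. It overlaps the letters of a MEF2 site, which were found in Myh1, Myh4 and Myh8 among the 9 and in 3.19% of all promoters. TATAAA, searched on both strands, was found in 6 of the 9 promoters and in 13.6% of all. Counted from the start, the last plus-strand one began at -29 in Myh3, -32 in Myh1 and -31 in Myh4. In Myh2 and Myh6 it began past the annotated start, at 10 and 1, and Myh8 had it on the minus strand only. The 20-base run began 140 bases before the last plus-strand TATAAA in Myh2, 133 in Myh1 and 132 in Myh4. These distances are not like for like, since that of Myh2 reaches past the start. CATTCC was in 4 of the 9 and 14.7% of all, CANNTG in 7 of the 9 and 72.3% of all, and a CArG box in 2 of the 9 and 1.63% of all, each searched on both strands. These matches are letters in a window and say nothing of binding.

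**Figure D1:**
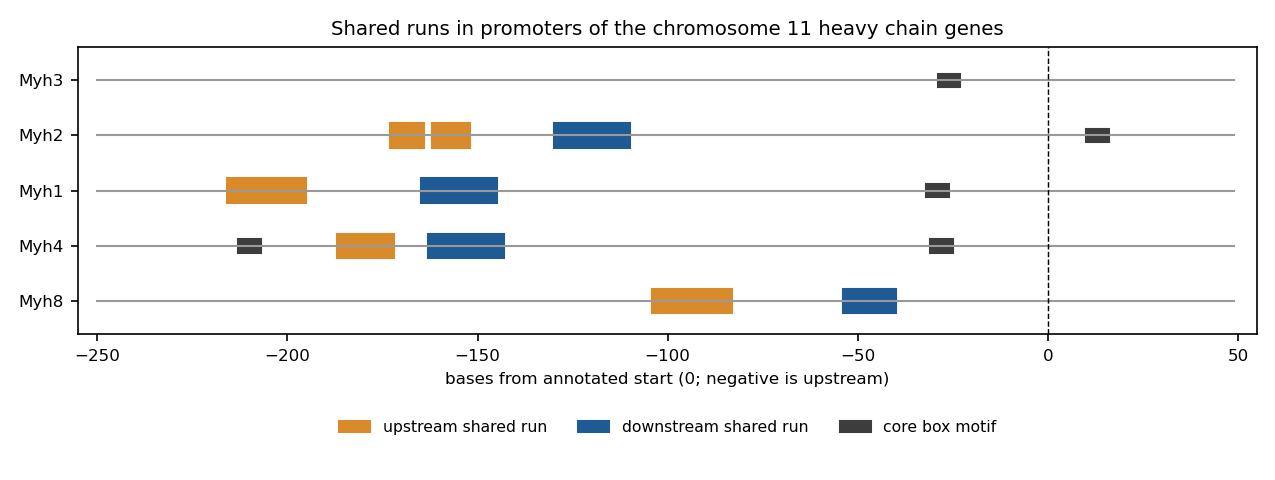
Distance in bases from the annotated start (x axis, 0 at the start) of the shared runs in the promoters of 5 heavy chain genes of chromosome 11. The upstream and downstream runs keep their order in Myh2, Myh1, Myh4 and Myh8, nearer the start in Myh8 (54 bases for the inner run) than in Myh1 (160 bases). Myh3 was not among the promoters compared for runs, so none could be marked in it. The core box motif is TATAAA on the plus strand, wherever it lies in the window, and in Myh2 it lies past the start.

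4 members (Myh3, Myh6, Myh7 and Myh7b) carry a microRNA in an intron on their own strand, and the 3 mature sequences with like seeds are shown because each is cut from its host's transcript. Capitals mark the seed, bases 2 to 8, from RefSeq on GRCm38.p6.
miR-208a-3p, hosted by Myh6: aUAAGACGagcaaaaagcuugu
miR-208b-3p, hosted by Myh7: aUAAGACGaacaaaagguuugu
miR-499-5p, hosted by Myh7b: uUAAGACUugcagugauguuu
The pair hosted by Myh6 and Myh7 has the same seed, UAAGACG, and that in Myh7b differs from it in the last base, UAAGACU. The rows of these 3 microRNA genes are listed at 0 in all 15 libraries, so levels are given below for their hosts alone.

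The members' coding sequences are so alike that reads can be shared. In GENCODE transcripts of GRCm38, coding sequences were 91.4% identical for Myh6 and Myh7, 91.0% for Myh2 and Myh1, and 90.1% for Myh1 and Myh4. The longest identical run, in whole transcripts, was 245 bases for Myh6 and Myh7 and 268 for Myh2 and Myh1. Of windows of 50 bases, 32.1% in Myh1, 28.9% in Myh2 and 28.2% in Myh7 also occurred in another gene. It was 22.6% in Myh6, 21.4% in Myh8, 18.9% in Myh4 and 0% to 8.45% in the other members. Of windows of 100 bases, 14.7% in Myh1, 13.9% in Myh7, 11.4% in Myh6, 11.2% in Myh2 and 6.61% in Myh8 also occurred in another gene, against 3.85% in Myh4, 3.45% in Myh13, 1.15% in Myh3 and 0% in Myh7b. A low level of one gene beside a high level of a near copy (Myh6 beside Myh7, or Myh8 beside Myh4, Myh1 and Myh2) is therefore uncertain, since the labels do not say how the authors' counting split such reads.

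Libraries held 17.09 to 22.98 M estimated counts (M for mega), and the shares and tests below rest on these depths. Pax7 stood at 11.8 to 21.6 TPM in MuSC libraries and at 0.06 to 0.26 TPM in muscle. Ckm, the creatine kinase of mature fibres, stood at 1.08 to 65.3 and 14845 to 21518 TPM, so both go with the labels. Other genes of mature fibres were plentiful in MuSCs too. Acta1, the skeletal actin, had 282 to 3964 TPM in MuSCs and 19651 to 29241 TPM in muscle. Mylpf, a myosin light chain, had 533 to 7336 TPM in MuSCs and 12477 to 21355 TPM in muscle. The MuSC libraries also held Myog, a factor of cells that leave the stem cell state, at 40.0 to 254 TPM. The level of Xist, the RNA of the inactive X chromosome, exceeded that of 4 Y-linked genes summed in 14 of 15 libraries, against the label of male. The exception was transplanted 4, with 0.01 TPM of Xist and 0.11 TPM of the Y-linked genes. Other muscle libraries had 8.18 to 31.3 TPM of Xist and 0.05 to 0.31 TPM of the Y-linked genes. In 3 MuSC libraries (after 5, before 5 and before 11) the sample description begins with the mouse number and in the other 3 with a letter. The summed FPKM (a value per gene length and library depth) was 79.1% to 80.7% of the summed TPM in the number-first libraries and 97.9% to 99.5% in the letter-first ones, so these forms are followed below. Whether libraries of 1 group came from separate cultures or preparations is given only by their mouse numbers, and p-values measure the spread between them.

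Quadriceps carried almost only adult fast heavy chain, and MuSCs mostly the embryonic one. Myh4 (ENSMUSG00000057003.13) had a lowest value of 5925, a median of 9201 and a highest value of 12568 TPM in transplanted muscle, and 9200, 10882 and 11994 TPM in sham 3, 12 and 192. It ranked 21st to 30th among all genes in the 9 muscle libraries. In MuSCs it had 1.63, 0.16 and 0.05 TPM in after 5, 6 and 11, and 1.55, 0.60 and 2.32 TPM in before 5, 6 and 11. The highest MuSC value was thus 2.32 TPM and the lowest muscle value 5925 TPM. Levels of cells and tissue come from tables made separately and were not tested against each other.

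**Figure D2:**
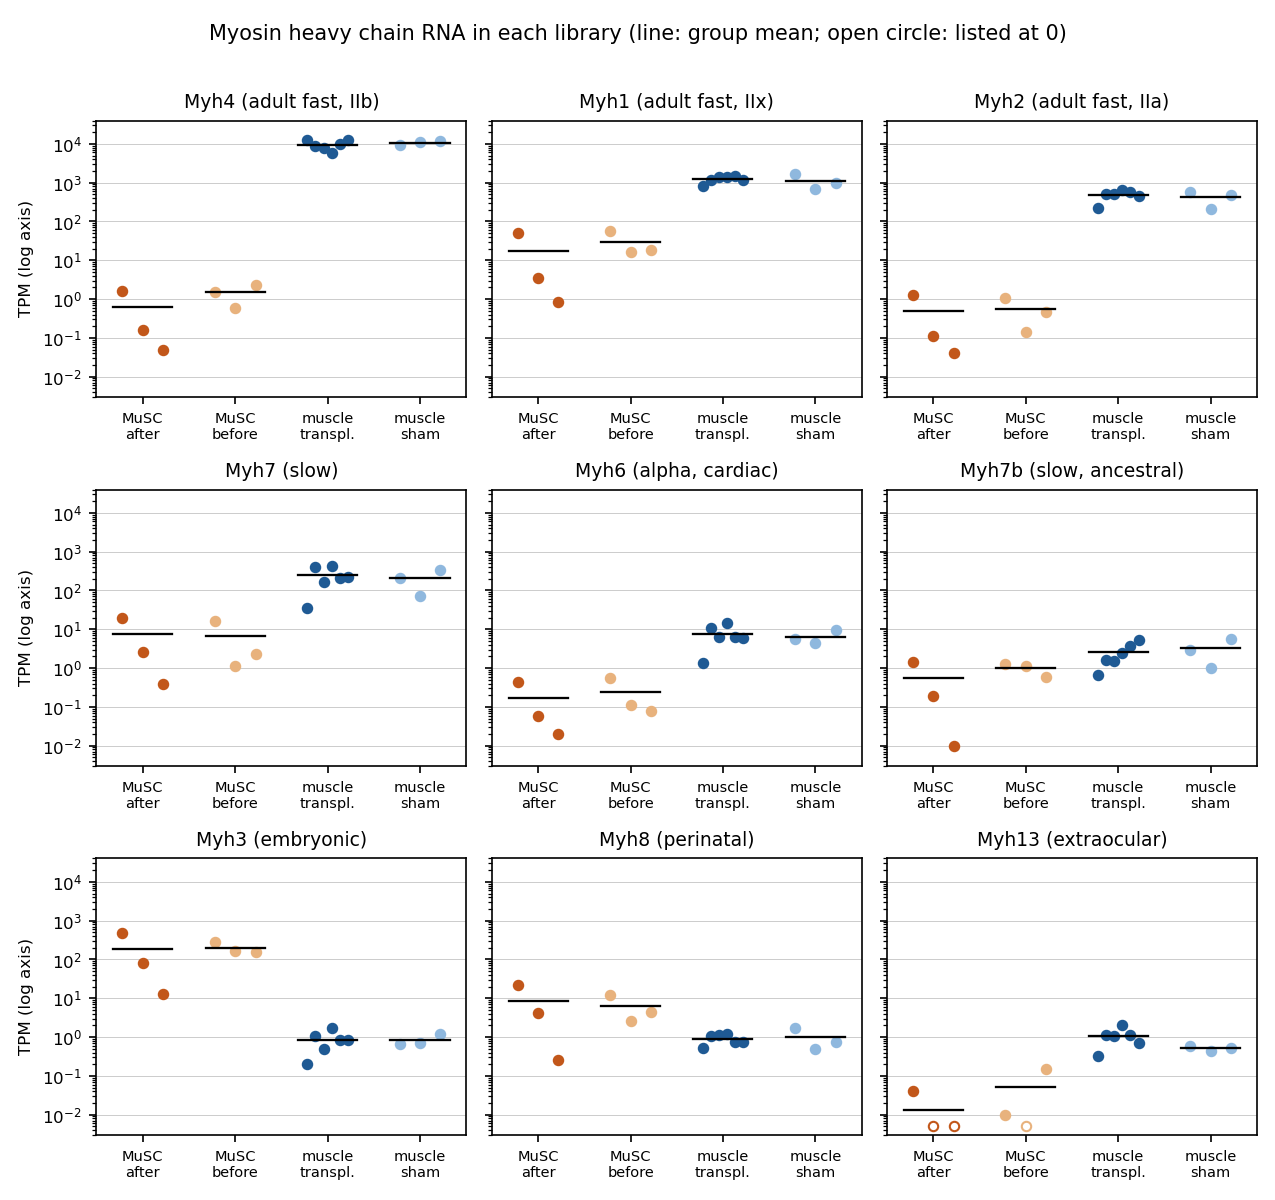
TPM on a log axis for each of the 9 genes in each library, in MuSCs after and before transplantation and in transplanted and sham muscle. Each point is a library, black lines are group means, and open circles are values listed at 0. Myh3 and Myh8 lie higher in most MuSC libraries than in muscle, where Myh4 lies between 5925 and 12568 TPM.

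Myh1 (ENSMUSG00000056328.15) and Myh2 (ENSMUSG00000033196.18), the other adult fast chains, came next in muscle. Myh1 had 802 TPM at the lowest, 1280 at the median and 1476 at the highest in transplanted muscle, against 1648, 668 and 972 TPM in sham 3, 12 and 192. Myh2 had 221, 510 and 639 TPM in transplanted muscle by the same measures, against 588, 208 and 467 TPM in sham 3, 12 and 192. In each of the 9 muscle libraries the order was Myh4, Myh1, Myh2, and the ranges of neighbours in it did not overlap. Sham 12 had the lowest Myh1 and Myh2 of the muscle libraries, and transplanted 4 came next in both.

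Myh7 (ENSMUSG00000053093.17), the slow chain, varied most among the leading members in muscle. It had 34.7, 403, 169, 432, 206 and 222 TPM in transplanted 4, 5, 6, 11, 14 and 94, and 211, 73.6 and 342 TPM in sham 3, 12 and 192. The highest muscle library exceeded the lowest 12.4-fold for Myh7, but 2.12-fold for Myh4. Myh7 was lower than Myh2 in all 9 libraries although their ranges overlapped, and transplanted 4 and sham 12 were again the lowest of their groups. Myh6 (ENSMUSG00000040752.17), its neighbour, followed far below at 1.35 to 14.2 TPM in transplanted and 4.32 to 9.39 TPM in sham muscle. The ratio of Myh7 to Myh6 was 25.7 to 37.6 in transplanted muscle and 17.0 to 37.5 in sham muscle. Myh7b (ENSMUSG00000074652.4) had 0.68 to 5.43 TPM in transplanted and 1.0 to 5.71 TPM in sham muscle.

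The estimated counts give a further limit on Myh7. Per TPM, Myh7 had 0.489 to 0.619 of the counts of Myh4 in the muscle libraries (median 0.559), while Myh1 had 0.991 to 0.998 and Myh2 0.992 to 0.996. The authors' effective length for Myh7 was thus shorter than for Myh4, Myh1 and Myh2, which raises its TPM relative to its counts. The same held for Myh7b (median 0.579) and for Myh13 (0.40 to 0.99, median 0.664, in 7 libraries). For Myh6 it held in some libraries (0.623 to 1.0, median 0.918).

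The developmental chains were near the bottom in muscle, and the embryonic one, Myh3, led in MuSCs. Myh3 (ENSMUSG00000020908.15) had 470, 80.9 and 12.7 TPM in after 5, 6 and 11, and 285, 167 and 153 TPM in before 5, 6 and 11. The values after transplantation spread 37-fold and enclosed those before it, which spread 1.86-fold. In muscle Myh3 had 0.20 to 1.73 TPM in transplanted and 0.66 to 1.21 TPM in sham libraries. Myh8 (ENSMUSG00000055775.17) had 21.5, 4.15 and 0.25 TPM in after 5, 6 and 11, and 12.1, 2.61 and 4.51 TPM in before 5, 6 and 11. It stood at 0.53 to 1.21 TPM in transplanted and at 0.48 to 1.74 TPM in sham muscle.

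Among the adult chains, Myh1 and not Myh4 was the leading one in MuSCs. Myh1 had 49.4, 3.42 and 0.85 TPM in after 5, 6 and 11, and 56.0, 16.0 and 18.6 TPM in before 5, 6 and 11. The ratio of Myh4 to Myh1 was 0.033 to 0.0588 in MuSCs after and 0.0277 to 0.125 in MuSCs before transplantation, against 4.25 to 15.3 in transplanted and 5.58 to 16.3 in sham muscle. Myh7 had 20.1, 2.60 and 0.38 TPM in after 5, 6 and 11, and 16.3, 1.11 and 2.35 TPM in before 5, 6 and 11. Myh2 stayed at 0.04 to 1.30 TPM after and 0.14 to 1.07 TPM before, Myh7b at 0.01 to 1.44 and 0.59 to 1.30 TPM, and Myh6 at 0.02 to 0.43 and 0.08 to 0.54 TPM. The mouse 5 libraries were the highest of their groups for Myh1, Myh3, Myh7 and Myh8.

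Myh13 (ENSMUSG00000060180.13) had the lowest mean TPM of the 9 in MuSCs and sham muscle, but not in transplanted muscle. It had 0.32 to 2.11 TPM in transplanted and 0.43 to 0.58 TPM in sham muscle, and 0.04, 0 and 0 TPM in after 5, 6 and 11 against 0.01, 0 and 0.15 TPM in before 5, 6 and 11. A count of 0 allows up to 0.143 CPM in after 6, 0.156 in after 11 and 0.175 in before 6, by a floor of 3 counts per library that covers counting error only. It had too few counts in MuSCs to enter the test.

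By mean TPM the order in transplanted muscle was Myh4, Myh1, Myh2, Myh7, Myh6, Myh7b, Myh13, Myh8, Myh3, and sham muscle had the same first 6 followed by Myh8, Myh3 and Myh13. The last 3 did not separate in transplanted muscle, where Myh13 exceeded Myh8 in 3 of 6 libraries and Myh8 exceeded Myh3 in 3 of 6. By summed estimated counts there, Myh13 had 426, below Myh8 with 630 and Myh3 with 585. In MuSCs after transplantation the order was Myh3, Myh1, Myh8, Myh7, Myh4, Myh7b, Myh2, Myh6, Myh13. In MuSCs before it Myh7 and Myh8 changed places, with Myh7 above Myh8 in 1 of 3 libraries. That change rests on TPM: in estimated counts, which are not scaled for length, Myh8 had 2322 and Myh7 756 summed over the 3 libraries after, and Myh8 1868 and Myh7 1057 before. Ranges of neighbours overlapped throughout the order after transplantation, but before it Myh3 stood clear of Myh1 and Myh8 clear of Myh4.

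The make-up of heavy chain RNA was described by each gene's share of the summed TPM of the 9 genes. Myh4 held 81.7% ± 7.39 in transplanted muscle (SD, n = 6) and 85.9% ± 6.57 in sham muscle (SD, n = 3). Myh1 held 11.3% ± 3.90 and 8.94% ± 4.55, Myh2 4.51% ± 2.01 and 3.40% ± 1.64, and Myh7 2.34% ± 1.76 and 1.64% ± 0.940, in transplanted and sham muscle. By estimated counts in place of TPM the mean share of Myh7 was 1.24% and 0.948%. Each of the other 5 members held at most 0.168% in any muscle library. The sum itself was 0.841% to 1.44% of all TPM in transplanted and 1.17% to 1.38% in sham muscle.

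**Figure D3:**
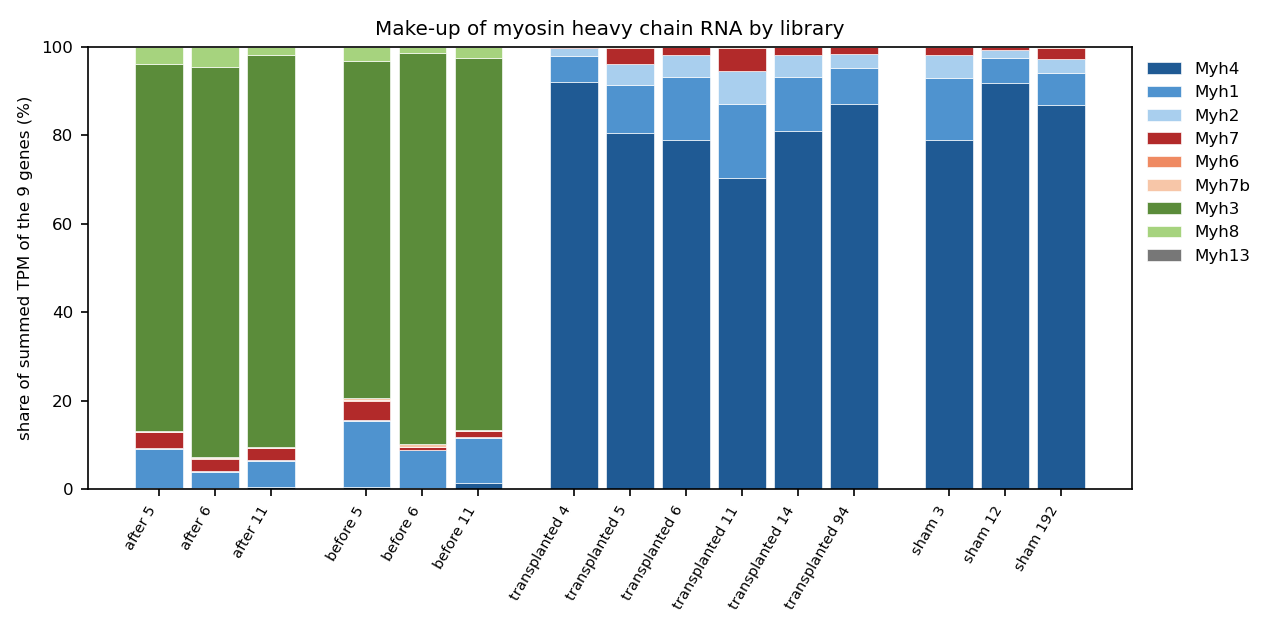
Share of the summed TPM of the 9 genes (y axis, percent) held by each gene in each library. Green, Myh3, fills 76.3% to 88.8% of each MuSC library, and dark blue, Myh4, fills 70.4% to 92.0% of each muscle library. Transplanted 4 and sham 12 have the largest Myh4 shares.

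None of the 4 shares tested in muscle differed between transplanted and sham mice beyond the spread between libraries. With the deposited table as a term, the difference was -3.54 percentage points for Myh4 (exact permutation p = 0.55), 2.06 for Myh1 (p = 0.55), 0.940 for Myh2 (p = 0.575) and 0.515 for Myh7 (p = 0.75). These are 2-sided tests over 40 relabellings within tables, which cannot go below 0.025, and all 4 had an adjusted p of 0.75 by Benjamini-Hochberg. Within tables the differences pointed opposite ways. In the 1-sham table Myh4 held 15.2 points less of the sum in transplanted than in sham muscle and Myh1 8.19, Myh2 4.05 and Myh7 2.89 points more. In the 2-sham table Myh4 held 3.78 points more in transplanted muscle, and the differences were -1.77 points for Myh1, -1.0 for Myh2 and -0.970 for Myh7.

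In MuSCs Myh3 held 86.7% ± 3.18 after and 82.9% ± 6.20 before transplantation (SD, n = 3 each), although its level spread 37-fold after it. Myh1 held 6.13% ± 2.50 after and 11.2% ± 3.36 before, a smaller share after transplantation for 3 of 3 mice, by differences of -6.23, -4.73 and -4.25 points in mice 5, 6 and 11. Myh8 held 3.36% ± 1.44 and 2.37% ± 0.935, and Myh7 3.02% ± 0.475 and 2.08% ± 2.0. Myh7b held 0.177% ± 0.0959 after and 0.427% ± 0.159 before. Its groups did not overlap by TPM, but by estimated counts they did, with 0.216% in after 6 and 0.197% in before 11. By TPM the exact permutation p of 0.1 is the smallest that 3 against 3 allows, so no share could pass. For Myh1 that p was 0.2, and over the 9 shares both had an adjusted p of 0.6. The sum of the 9 genes was 0.0566%, 0.00915% and 0.00143% of all TPM in after 5, 6 and 11, against 0.0374%, 0.0189% and 0.0182% in before 5, 6 and 11.

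The MuSC comparison asked how endogenous stem cells changed once their mouse had received its own cells back. No heavy chain gene passed the test, and neither did any other gene. edgeR's quasi-likelihood test, 2-sided with an adjusted p threshold of 0.05, called 0 of 13512 genes (0%), and at an unadjusted p under 0.05 it called 0 of 8 members against 2.26% of all genes, while DESeq2 called 16 genes (0.118%), none of them a member (Myh1 got no adjusted p). With the mouse as a block, which pairs the libraries, the count at an unadjusted p under 0.05 was 1 of 8 members against 1.58% of all genes, namely Myh1 with -2.07 ± 0.76 on the log2 scale (SE, adjusted p = 0.901, edgeR). Over the 8 members tested, 1 had a positive fold change, against 51.4% of all genes, and the median was -0.42 on the log2 scale against 0.02. In 0 of 8 members did the groups fail to overlap in CPM, against 3.35% of all genes that were wholly higher after and 2.98% that were wholly lower.

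Among the developmental chains, Myh3 had a log2 fold change of -0.18 ± 0.93 (SE, adjusted p = 0.954, edgeR) and Myh8 one of 0.43 ± 1.12 (adjusted p = 0.908). The interval of 2 SE each way was -2.05 to 1.68 for Myh3 and -1.81 to 2.67 for Myh8. With that block the log2 fold changes were -1.09 for Myh3 and -0.42 for Myh8, neither past the threshold. Of the adult fast chains, Myh1 had -0.83 ± 1.16, Myh4 -1.33 ± 1.03 and Myh2 -0.23 ± 1.12. Of the slow-type chains, Myh7 had -0.31 ± 1.24, Myh6 -0.52 ± 1.06 and Myh7b -1.21 ± 1.03. Adjusted p-values of these 6 were 0.873 to 0.951.

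After 11 had the lowest CPM of the 6 MuSC libraries in 8 of 8 members, against 36.4% of all genes. The same library had the lowest summed TPM of the lists of myosin light chains, fast and slow fibre genes, differentiation genes and mature fibre markers. These lists share genes, such as Mylpf and Acta1, so their sums are not separate observations. That library also had the lowest mitochondrial share, 1.20% of counts against 4.44% to 6.28% in the other MuSC libraries. After 5 had the highest Myh3 and Myh8. Without after 5 the log2 fold changes of the 8 members ran from -3.42 to -1.06, and without after 11 from -0.81 to 0.99, with no gene called in either fit. By mouse, in CPM, 4 of 8 members (Myh1, Myh6, Myh7 and Myh7b) were lower after in 3 of 3 mice, against 10.3% of all genes. In TPM this does not hold for Myh7, which had 20.1 TPM in after 5 and 16.3 TPM in before 5, and 2.60 TPM in after 6 and 1.11 TPM in before 6. Nor does it hold in TPM for Myh7b, which had 1.44 TPM in after 5 and 1.30 TPM in before 5.

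The direction also moved with the form of the library names. Among number-first libraries (after 5 against before 5 and before 11), the log2 fold change was 1.08 for Myh3, 1.34 for Myh8 and 0.39 for Myh1. Among letter-first libraries (after 6 and 11 against before 6), it was -1.80 for Myh3, -0.18 for Myh8 and -2.86 for Myh1. In 6 of 8 members it was positive in the number-first and negative in the letter-first libraries, against 27.4% of all genes. Each of these fits has a group with 1 library, which is assumed to vary like the others. Xist also differed by form, with 44.45 to 84.08 TPM in number-first and 2.63 to 10.22 TPM in letter-first libraries. Genes with at least 1 estimated count numbered 19610 to 19786 and 17695 to 18226. Mouse 11 crosses the forms, its after library being letter-first and its before library number-first. What the forms stand for is not given in the labels, and their part in the result was not tested.

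**Figure D4:**
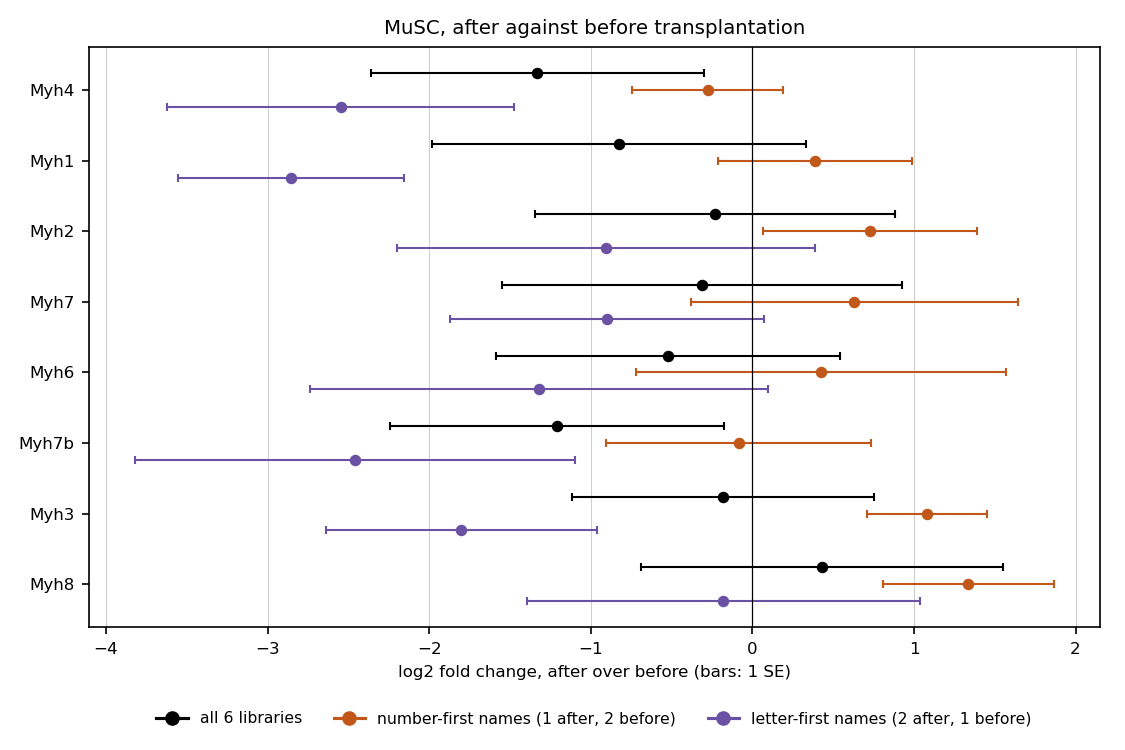
Log2 fold change of 8 genes in MuSCs after over before transplantation (points, with bars of 1 SE), from all 6 libraries and from the number-first and letter-first libraries alone. The 8 points from all libraries lie between -1.33 and 0.43, and for Myh3 the other 2 points are 1.08 and -1.80.

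Genes that work beside the heavy chains had similar values in MuSCs. Of the list of 8 myosin light chains, 6 were tested, 0 passed and 6 were negative, with a median log2 fold change of -0.48. Mylpf, the fast regulatory light chain, had -1.08 ± 0.79, Myl1, the fast essential light chain, -0.71 ± 0.77, and Myl4, the embryonic and atrial one, -0.04 ± 0.63. Of 14 thick filament proteins, chaperones and turnover genes tested, 12 were negative, with Mybph, a myosin binding protein, at -0.47 ± 0.61. Of 13 fast fibre genes 10 were negative and of 12 slow fibre genes 11, with medians of -0.17 and -0.33. Tnnc1, the slow troponin C, had -0.75 ± 0.69 and Tnni1, the slow troponin I, -0.89 ± 0.70. None of these genes passed the test, in which 51.4% of all genes were positive.

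Of 15 differentiation genes tested in MuSCs, 12 were negative (median -0.30), with Acta1, the skeletal actin, at -0.80 ± 0.75. Their summed TPM was 6662, 4485 and 2072 in after 5, 6 and 11, against 7718, 7604 and 3973 in before 5, 6 and 11. Of 22 fibre type regulators 15 were negative (median -0.24), Mef2a having -0.91 ± 0.65. Of 9 stem cell identity genes 4 were negative (median 0.06), with Myod1 at 0.32 ± 0.49. Of 11 mature fibre markers 8 were negative (median -0.26). Their summed TPM was 8339, 6674 and 2158 in after 5, 6 and 11, against 9735, 14010 and 4967 in before 5, 6 and 11, so it moved with the heavy chains in after 11, and its part in the result was not tested. 0 genes of these lists passed.

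Markers of endothelial cells, macrophages and adipocytes were low in MuSC libraries, but those of smooth muscle summed higher there than in muscle. Endothelial markers summed to 0.21 to 1.54 TPM after and 0.21 to 0.62 TPM before, macrophage markers to 2.26 to 4.85 and 2.07 to 5.14 TPM, and adipocyte markers to at most 0.09 TPM in either group. Fibroadipogenic markers summed to 32.3 to 51.4 TPM after and 37.4 to 78.0 TPM before. Most of this was Col3a1, with a mean of 46.4 TPM in MuSCs and 42.8 TPM in muscle. Smooth muscle markers summed to 203 to 1092 TPM after and 756 to 1195 TPM before, against 56.4 to 116 TPM in muscle. Most of this was Acta2, an actin that cultured muscle precursors also make. Tagln, another of the list, had a mean of 93.8 TPM in MuSCs and 16.3 TPM in muscle. Which cells this RNA came from was not tested. Cardiac markers summed to 87.2 to 371 TPM after and 91.5 to 347 TPM before, nearly all of it Myl4, and acetylcholine receptor and denervation genes to 1121 to 1181 and 1194 to 1835 TPM. Of the genes tested in these lists, none passed. In bulk RNA, fewer cells of a kind and less RNA per cell cannot be told apart.

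The muscle comparison asked whether the hindlimb muscle of transplanted mice differs from that of sham mice. Again no heavy chain gene passed. edgeR called 0 of 14375 genes (0%), and at an unadjusted p under 0.05 it called 0 of 9 members against 7.08% of all genes, while DESeq2 called 6 genes (0.0417%), none of them a member. The fold change was positive for 7 of 9 members, against 49.9% of all genes, with a median of 0.08 on the log2 scale. In 0 of 9 members were the groups without overlap in CPM, against 1.15% of all genes wholly higher and 0.96% wholly lower in transplanted muscle.

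Of the 9 members Myh4 had the smallest error. It had a log2 fold change of 0.02 ± 0.16 (SE, adjusted p = 0.985, edgeR), and its interval of 2 SE each way was -0.30 to 0.35. Myh1 had 0.32 ± 0.33 and Myh2 0.32 ± 0.42. Of the slow-type chains, the log2 fold change was 0.05 ± 0.71 for Myh7 (interval -1.37 to 1.48), 0.10 ± 0.61 for Myh6 and 0.08 ± 0.47 for Myh7b. Myh3 had -0.03 ± 0.52, Myh8 -0.14 ± 0.46 and Myh13 0.39 ± 0.30, all from low counts. Adjusted p-values of the 9 members were 0.791 to 0.996.

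Within the tables the members pointed opposite ways. In the 1-sham table, transplanted over sham 12, the log2 fold change was 1.39 for Myh1, 1.82 for Myh2, 2.40 for Myh7, 2.18 for Myh6, 1.65 for Myh8 and -0.14 for Myh4. In the 2-sham table, transplanted over sham 3 and 192, it was -0.22 for Myh1, -0.36 for Myh2, -0.83 for Myh7, -0.76 for Myh6, -0.95 for Myh8 and 0.13 for Myh4. The sign differed between the tables in 9 of 9 members, against 47.4% of all genes. In 8 of 9 it was positive in the 1-sham and negative in the 2-sham table, against 23.6% of all genes. Myh2 passed in the 1-sham table alone (adjusted p = 0.0483, edgeR), where 0.276% of all genes did, but that table has a single sham. In the 2-sham table alone 0 members passed, against 0.00712% of all genes. Sham 12 had the lowest mitochondrial share in muscle, 9.29% of counts, against 12.2%, 14.0% and 14.4% in transplanted 5, 6 and 11. Its summed FPKM was 82.9% of the summed TPM, against 90.7%, 91.1% and 97.2% in those libraries. The part of these differences in the 1-sham values was not tested.

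A fit with a term for the difference between tables, added after the data were seen, gave 0 of 9 members past the threshold and 0% of all genes. At an unadjusted p under 0.05, 6 of 9 members differed between the tables, against 9.34% of all genes. The difference on the log2 scale was 3.22 ± 1.05 for Myh7 (adjusted p = 0.406), 2.58 ± 0.56 for Myh8 (adjusted p = 0.339), 2.17 ± 0.52 for Myh2 (adjusted p = 0.375) and -0.28 ± 0.31 for Myh4. Sham 12 and transplanted 4 were the low ends of most members. Sham 12 had the lowest CPM of the 9 muscle libraries for 4 of 9 members (Myh1, Myh2, Myh7b and Myh8), against 8.97% of all genes. Transplanted 4 had the lowest for another 4 (Myh3, Myh6, Myh7 and Myh13), against 14.9% of all genes. Without sham 12 the log2 fold change was -0.83 for Myh7, -0.36 for Myh2 and -0.21 for Myh1, and without transplanted 4 it was 0.60 for Myh7 and 0.64 for Myh2, none of them past the threshold.

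**Figure D5:**
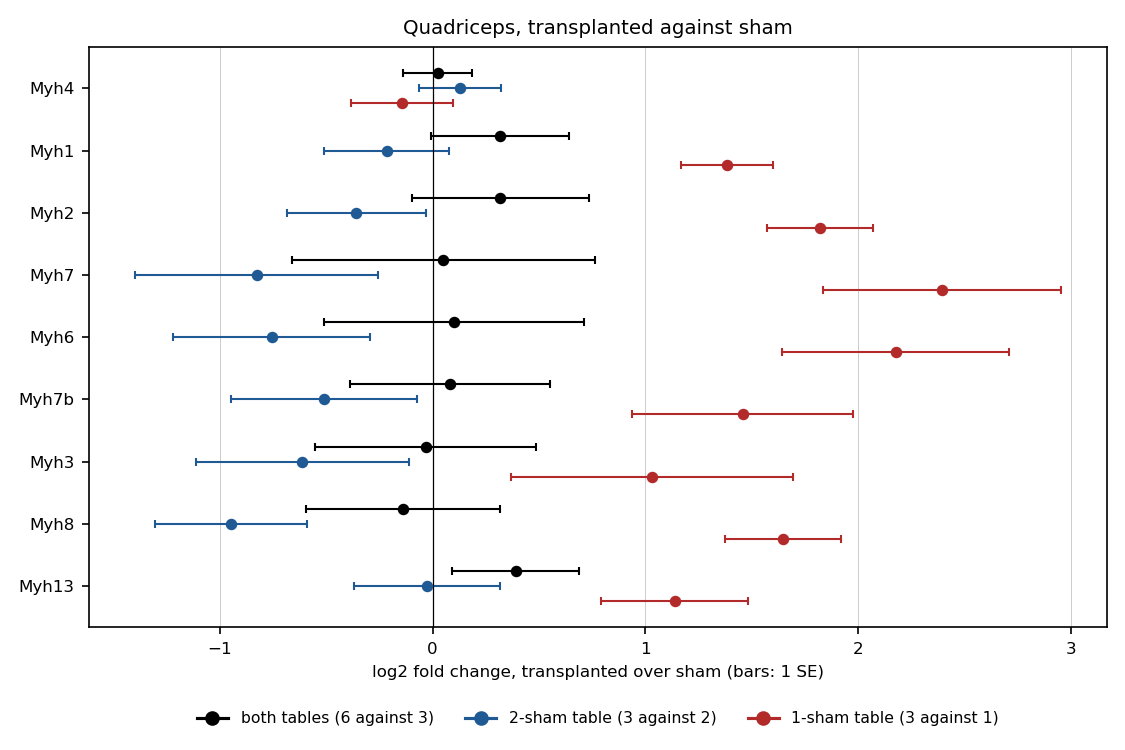
Log2 fold change of 9 genes in transplanted over sham quadriceps (points, with bars of 1 SE), from both tables together and from each alone. The 1-sham points lie to the right of 0 for 8 genes, up to 2.40 for Myh7, the 2-sham points lie to the left for the same 8, and Myh4 lies within 0.14 of 0 in each.

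The partners of the heavy chains kept to the same range in muscle. 7 of 7 light chains tested were positive (median 0.22), with Mylpf at 0.21 ± 0.15 and Myl2, the slow regulatory light chain, at 0.22 ± 0.70. Of 14 thick filament, chaperone and turnover genes 11 were positive (median 0.10), Mybpc2, the fast myosin binding protein C, having 0.06 ± 0.15. 15 of 15 fast fibre genes were positive (median 0.14) and 12 of 12 slow fibre genes (median 0.24), against 49.9% of all genes. Tnnt3, the fast troponin T, had 0.15 ± 0.13 and Tnnt1, the slow one, 0.12 ± 0.70. The summed TPM of the fast list was 127200 to 156800 in transplanted muscle, within its sham range of 117000 to 162500. Genes of a list were measured in the same libraries, so their signs are not separate observations. The summed TPM of the slow list was 450 in transplanted 4 and 2166 to 5233 in the other transplanted libraries. It was 2214, 954 and 2758 in sham 3, 12 and 192, so transplanted 4 and sham 12, low in Myh7, were also low in this sum. Of 25 fibre type regulators 15 were positive (median 0.04), Mef2c having -0.02 ± 0.11 and Tbx15, a factor of glycolytic fibres, 0.06 ± 0.12. None of these genes passed.

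Of 13 differentiation genes tested in muscle 9 were positive (median 0.02), of 11 mature fibre markers 11 (median 0.21), of 10 stem cell identity genes 3 (median -0.22) and of 7 acetylcholine receptor and denervation genes 5 (median 0.08). Of 4 other class II heavy chains tested, which serve non-muscle and smooth muscle cells, 3 were positive, Myh14 having 0.12 ± 0.08 and Myh9 -0.22 ± 0.11, and in MuSCs 1 of 3, Myh9 having 0.20 ± 0.32. Cardiac markers summed to 6.05 to 14.8 TPM in transplanted and 6.74 to 8.75 TPM in sham muscle, and smooth muscle markers to 56.4 to 92.0 and 68.1 to 116 TPM. None of these genes passed.

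Markers of other cells were highest in sham 12 for several lists. Adipocyte markers, 0 of 6 positive (median -1.67), summed to 29.1 to 183 TPM in transplanted muscle, against 149, 584 and 40.9 TPM in sham 3, 12 and 192. Fibroadipogenic markers, 0 of 6 positive (median -0.40), summed to 188 to 262 TPM in transplanted muscle, against 275, 443 and 255 TPM in sham 3, 12 and 192. Macrophage markers, 0 of 5 positive (median -0.45), summed to 9.92 to 16.7 TPM in transplanted muscle, against 12.4, 23.7 and 12.9 TPM in sham 3, 12 and 192. Endothelial markers, 3 of 5 positive (median 0.04), summed to 45.6 to 73.2 and 61.6 to 78.3 TPM in transplanted and sham muscle. None of these genes passed, and the part of these cells in the low Myh1 and Myh2 of sham 12 was not tested.

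RNAs that lie between the chromosome 11 genes were also measured. Myhas, an antisense RNA of the interval between Myh1 and Myh4, had 51.8 to 81.2 TPM in transplanted and 46.8 to 82.5 TPM in sham muscle, but at most 0.95 TPM in MuSCs. 2310065F04Rik, which RefSeq also calls linc-Myh, had 22.3 to 67.2 TPM in transplanted muscle, against 30.2, 32.1 and 49.8 TPM in sham 3, 12 and 192, and at most 0.23 TPM in MuSCs. Transplanted 4 had the most of it. The labels do not say whether counting used strand, so reads of Myhas and of a gene it overlaps cannot be told apart.

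The genes most like each leading member across libraries were found by Pearson's correlation of log2(TPM + 1), centred within tables, over the 9 muscle libraries and 4634 protein-coding genes. The libraries of a table share its processing, and no test was made. For Myh7 they were Tnni1, Atp2a2, Tpm3, Myl2 and Tnnt1, with r of 0.99 to 1.0. For Myh2 they were Ldhb, Decr1, Idh2, Acaa2 and Smtnl1 (0.98 to 1.0), and for Myh1 Mtfp1, Ppif, Got1, Ndufs7 and Perm1 (0.96 to 0.98). For Myh4 they were Phkb, Mybpc2, Cib2, Ywhae and Vps36 (0.97 to 0.99). Over the 6 MuSC libraries and 8600 genes, without centring, Cdc42ep3, Ephx2, Mef2c, Adprm and C1qtnf3 were most like Myh3 (0.99 to 1.0). Brinp3, Kif1a, Herc3 and Them4 were among those most like Myh8 (0.99 each). After 5 and after 11 were the extremes of the 6 libraries for both Myh3 and Myh8.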

How the data were processed

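RNA of 6 MuSC and 9 quadriceps libraries was analysed. Trizol and a NEBNext Ultra kit were used, per the labels' protocols. The authors deposited 3 tables that give, per the file headers, estimated counts, TPM and FPKM for 56953 genes. Of the deposited estimated counts, 7.40% to 8.82% per library were not whole, and all were rounded for tests. TPM and FPKM are the authors' values per length and library total, and no counts of reads per isoform were used. GRCm38 and mm10 are named per the submitters' processing notes; no aligner, quantifier or annotation is named there, and no coordinates of the tables are printed. Another 3 value columns matched no sample's labels and were not used, and 1554 rows without a symbol stayed in the fits.

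Members were matched by symbol (9 of 9), and 9 of 9 matched the RefSeq promoter table. The members and the gene lists were chosen with earlier results of these data known. Shams were identified by title, since their treatment label reads like that of transplanted mice. edgeR 4.0.16 (R 4.3.3) was run on all genes with filterByExpr (minimum count 10), TMM, the quasi-likelihood test and Benjamini-Hochberg adjustment over all genes tested, 2-sided, threshold 0.05. The MuSC fit had no covariate and the muscle fit had the table as a term. The SE is the log2 fold change over the root of F. Both fits were tested on simulated counts with 4-fold changes. They recovered 195 of 198 changed genes with 4 false calls for MuSCs, and 194 of 194 with 10 false calls for muscle. The simulation gave all genes 1 fixed spread, not taken from these libraries, so it does not measure the power of the tests here. Shares were tested by exact permutation. Alternatives were DESeq2 1.42.0, no filter, each table alone, no table term, the mouse block, the name form, each library left out, and shares of counts or FPKM. Named genes beyond the members were the 3 of each list with the highest mean TPM, from which the text takes up to 3, and the 5 genes most like a leading member; some of these are not reported here.

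MuSC libraries after and before transplantation share mouse numbers 5, 6 and 11 and are labelled autologous, which pairs them. Same-mouse deviations from the group means had correlations of 0.30, 0.36 and -0.40 in mice 5, 6 and 11 (log2 CPM, prior count 2). Pairs from different mice ran from -0.68 to 0.55. The highest were after 11 with before 6 (0.55) and after 5 with before 11 (0.49), above each same-mouse value. Both of these pairs have library names of the same form, while the mouse 11 pair does not. The values thus do not show that libraries of a mouse are more alike. Replicates all differed by more than sampling noise (chi-square over its degrees of freedom, 18.25 to 505.63).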

Additional observations from a re-analysis of the deposited data

Results flagged for a closer look

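Among 18 member and measure pairs examined in the 6 transplanted muscle libraries, 1 library stood far from the others. The share of Myh13 in the summed TPM was 0.0251% in transplanted 11, against 0.00240% to 0.0107% in the other transplanted libraries and 0.00363% to 0.00498% in sham muscle. Chance marks about 1 group in 20 by this measure. Myh13 had 108 estimated counts in transplanted 11, and by counts its share there was 0.0103%.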

How the results depend on the processing

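Counts of genes called moved most. In MuSCs 0 genes were called in the fit reported, 16 by DESeq2 and 43 in the number-first libraries alone, and 0 with each library left out in turn. In muscle, against 0 reported, 6 were called by DESeq2, 12 without the filter on low counts, 1 in the 2-sham table, 41 in the 1-sham table, and 0 to 4 with a library left out (2 without transplanted 94 and 4 without sham 192). No member was past the threshold in any of these fits except Myh2 in the 1-sham table.

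In MuSCs, 18 of 96 alternative log2 fold changes of the 8 members had the other sign, none past the threshold. In the number-first libraries alone they were 0.39 for Myh1, 0.73 for Myh2, 1.08 for Myh3, 0.42 for Myh6 and 0.63 for Myh7. Myh8 turned to -0.18 in the letter-first libraries alone, and Myh2 to 0.02 with the name form as a term. With the mouse as a block, which pairs the libraries, 0 genes were called, 1.58% had an unadjusted p under 0.05 (Myh1 among the members), Myh8 turned to -0.42 and no other member changed direction, Myh3 having -1.09 and Myh1 -2.07. With each library left out in turn, Myh2 ran from -2.40 to 0.52, Myh3 from -1.71 to 0.35, Myh6 from -2.12 to 0.61, Myh7 from -2.43 to 1.31 and Myh8 from -1.06 to 1.11, each lowest without after 5. Myh1, Myh4 and Myh7b kept a negative sign with each library left out. The share differences of Myh1, Myh3, Myh7 and Myh8 kept their direction in 9 of 9 alternatives each, but that of Myh7 was 0.0276 points by counts against 0.937 by TPM.

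In muscle, 32 of 126 alternatives had the other sign. In the 2-sham table alone the values were -0.22 for Myh1, -0.36 for Myh2, -0.76 for Myh6, -0.83 for Myh7, -0.51 for Myh7b and -0.03 for Myh13. In the 1-sham table alone they were 1.03 for Myh3, -0.14 for Myh4 and 1.65 for Myh8. Without the table term they were 0.19 for Myh3, -0.02 for Myh4, -0.16 for Myh7b and 0.01 for Myh8. With each library left out in turn, Myh1 ran from -0.21 to 0.79, Myh2 from -0.36 to 0.69, Myh3 from -0.61 to 0.40, Myh4 from -0.07 to 0.14, Myh6 from -0.76 to 0.57, Myh7 from -0.83 to 0.60, Myh7b from -0.51 to 0.42, Myh8 from -0.94 to 0.66 and Myh13 from -0.02 to 0.61. Of these, the lowest was that without sham 12 in each member except Myh4. The share differences in the 2-sham table were -1.77 points for Myh1, -1.0 for Myh2, 3.78 for Myh4 and -0.970 for Myh7, which are also the values without sham 12. With a library left out they ran to 4.98 for Myh1, 1.94 for Myh2, -7.74 for Myh4 and 1.13 for Myh7. The cause of these changes was not tested. Depth limits Myh13 in MuSCs, which had 0 to 3 estimated counts in each library.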
